A study of Saccharomyces cerevisiae with 180 samples.

Results

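Mitochondrial ribosomal protein genes are nuclear genes whose products build the ribosome inside the mitochondrion. They were taken as all genes of the table whose symbol is MRPL, MRPS, MRP or RSM followed only by digits, with MRP8 left out. This gave 66 genes of 5605, each with 1 probe, of which 38 encode proteins of the large subunit and 28 proteins of the small subunit. The study hybridised RNA from haploid yeast cultures against 1 reference pool of the laboratory strain BY4716, on 2 arrays per culture with the dyes exchanged. RM11 is a haploid derivative of a vineyard isolate, of mating type a, that lacks LEU2, URA3 and HO, and 2 cultures of it were measured. The 86 segregants are haploid progeny of BY4716 and RM11-1a, 1 culture each, and are numbered here in the order of the series. BY4716, of mating type alpha and lacking LYS2, was measured in 2 cultures separate from the pool. The labels name no treatment or time.

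Yeast mitochondria keep their own small genome, which encodes a few subunits of the respiratory chain and ATP synthase and a single ribosomal protein. Almost all proteins of the mitochondrial ribosome are therefore made in the cytosol and imported. The small subunit decodes the messenger RNA, and the large subunit forms the peptide bonds. Many of the proteins descend from bacterial ribosomal proteins, and others exist only in mitochondria. By the family names, 41 genes here belonged to bacterial families, 24 to mitochondria-specific families, and RSM22, related to methyltransferases, to neither.

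All values are log ratios of a culture over the BY4716 pool, read as log2, so 0 means the level of the pool and the values say nothing about abundance. Of 12 strain marker genes, 9 had values in both strains, and all 9 differed the way the genotypes require. An array held between 3769 and 6570 values. The r across genes between both arrays of a culture was 0.905 and 0.838 in RM11, had a median of 0.754 in segregants, and was 0.123 and 0.0219 in BY4716, the strain of the pool. In 6 segregants a whole chromosome stood apart. The median over all genes of chromosome II was above the array's median by 0.79, 0.79, 0.68 and 0.65 in segregants 61, 37, 51 and 75. That of chromosome XIII was above by 0.81 in segregant 47, and in segregant 70 chromosomes IV and IX were above by 0.74 and 0.66. The next highest chromosome median of any culture was 0.18. Several values that these cultures could move are given with and without them.

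The first comparison asked whether the members differed between the parents. A value on all 8 parental arrays was present for 50 members. In RM11, 34 of these 50 were higher at a Benjamini-Hochberg adjusted p under 0.05 by limma, and 0 were lower. Over all 3256 genes tested, 18.2% passed as higher and 8.54% as lower. The difference was positive in 48 of 50 members, with a median of 0.41, against 0.10 over all genes. The RM11 cultures lay above both BY4716 cultures without overlap in 46 members, where 46.3% of all genes did so. Fits without RM11 replicate 1 or 2 take the error from the BY4716 cultures alone. Their counts are not read as a result about the members. With BY4716 replicate 1 left out, 0 of 53 members passed, and with BY4716 replicate 2 left out, 1 of 57, where 3.00% and 2.82% of all genes passed as higher. Those 2 fits take the error from the RM11 cultures alone, and the median difference in them was 0.38 and 0.42. The calls, though not the size of the difference, therefore rested on having both BY4716 cultures. With quantile normalization 10 of 50 members passed, with a median difference of 0.26.

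**Figure D1:**
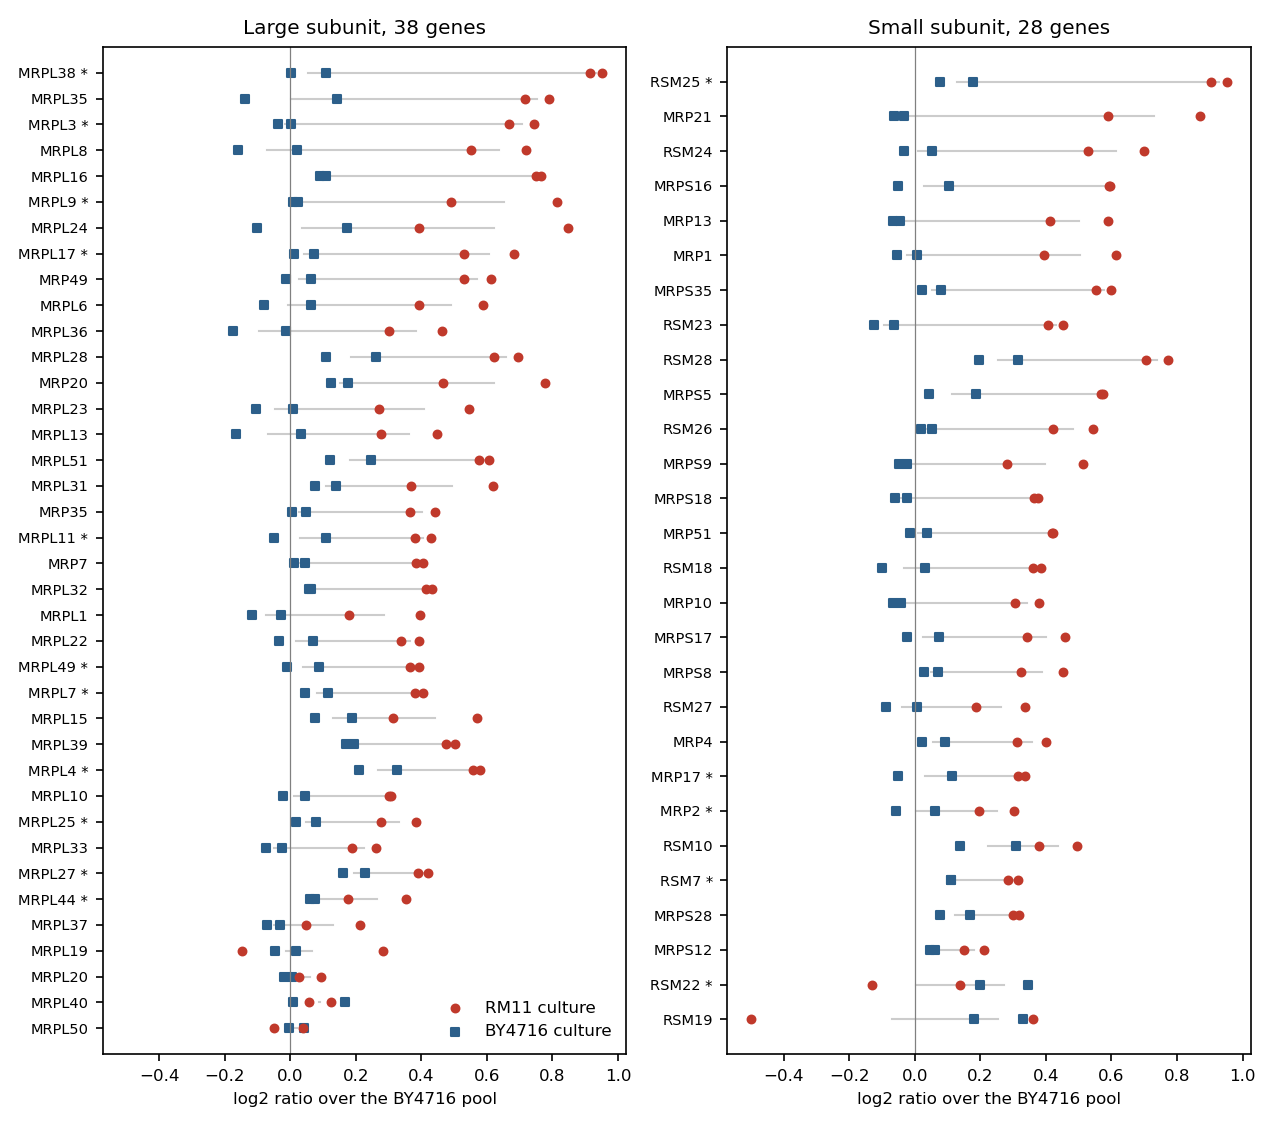
Log2 ratio over the BY4716 pool (horizontal axis) of each member (rows) in the RM11 cultures (red circles) and the BY4716 cultures (blue squares), with a grey line between the strain means and asterisks on members without a value on all 8 parental arrays. RM11 lies to the right in nearly all rows of both subunits, and RSM19 has RM11 cultures at 0.36 and -0.50.

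Among large subunit proteins of bacterial families, MRPL8 (bL17) had log2 ratios of 0.55 and 0.72 in the RM11 cultures, against 0.02 and -0.16 in the BY4716 cultures. It was higher by 0.71 (SE 0.11, limma adjusted p = 0.00948), or 1.63-fold. MRPL16 (uL16) stood at 0.75 and 0.77 in RM11 and at 0.09 and 0.11 in BY4716, a difference of 0.66 (SE 0.08, limma adjusted p = 0.00384). The cultures of a strain were close together here and the strains far apart. MRPL24 (bL28) had the sixth largest difference, but its RM11 cultures were spread, at 0.39 and 0.85, against -0.10 and 0.17 in BY4716. Its difference of 0.59 (SE 0.18) did not pass, with an adjusted p of 0.0682. Others of these families that passed were MRPL6, MRPL36, MRP20, MRPL23, MRP35, MRP7, MRPL32, MRPL22, MRPL39 and MRPL10, with differences between 0.50 (MRPL6) and 0.29 (MRPL10). MRPL1 and MRPL33 did not pass, at 0.36 and 0.27, with adjusted p of 0.0586 and 0.0598.

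In the mitochondria-specific families of the large subunit, MRPL35 (mL38) had 0.72 and 0.79 in RM11, against -0.14 and 0.14 in BY4716. Its difference of 0.75 (SE 0.12, adjusted p = 0.0104) was 1.68-fold. MRP49, MRPL28, MRPL13 and MRPL51 were also higher, by 0.54, 0.47, 0.43 and 0.41. MRPL31 and MRPL15, at 0.39 and 0.31, and MRPL37, at 0.18, did not pass. Taken as a subunit, 17 of 27 tested large subunit members were higher, with a median difference of 0.38.

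Of the small subunit, 17 of 23 tested members were higher, with a median difference of 0.41. MRP21 (bS21) had the largest difference of any tested member. Its RM11 cultures stood at 0.59 and 0.87, and its BY4716 cultures at -0.06 and -0.03. The difference was 0.78 (SE 0.11, adjusted p = 0.00897), or 1.71-fold. RSM24 (mS35), a mitochondria-specific protein, had 0.53 and 0.70 in RM11, against 0.05 and -0.03 in BY4716, a difference of 0.60 (SE 0.10, adjusted p = 0.0108). The bacterial-family genes MRPS16, MRPS5, MRPS9, MRPS18, MRP51, RSM18, MRPS17 and MRPS8 were higher by between 0.57 (MRPS16) and 0.34 (MRPS8). So were the mitochondria-specific MRP13, MRP1, MRPS35, RSM23, RSM28, RSM26 and MRP10, between 0.56 (MRP13) and 0.40 (MRP10). RSM27, MRP4, RSM10 and MRPS28 stood at 0.30, 0.30, 0.22 and 0.19 and did not pass. By family, 13 of 18 mitochondria-specific members passed, with a median of 0.46, and 21 of 32 of bacterial families, with a median of 0.37. A difference between subunits or between families was not tested.

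A few members showed little or no parental difference. MRPL50 (bL9) had -0.05 and 0.04 in RM11 and 0.00 and 0.04 in BY4716, a difference of -0.02 (SE 0.08). MRPL40 (uL24) had 0.12 and 0.06 in RM11 and 0.01 and 0.17 in BY4716, with a difference under 0.01 in size (SE 0.09). MRPL20 (mL58) had 0.03 and 0.09 in RM11 and 0.01 and -0.02 in BY4716, a difference of 0.07 (SE 0.08). For these genes no culture of either strain was more than 0.17 from the pool. MRPL19 (uL11) had RM11 cultures on both sides of the BY4716 ones, at 0.28 and -0.15 against -0.05 and 0.02. Its difference of 0.08 had a larger SE, 0.15, so it was measured less well than the 3 genes before it. MRPS12 (uS12), of the decoding centre, had 0.15 and 0.21 in RM11 and 0.05 and 0.06 in BY4716, a difference of 0.13 with an adjusted p of 0.278.

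RSM19 (uS19) was the member with the lowest difference, -0.32 (SE 0.28, limma adjusted p = 0.424). Its RM11 cultures stood at 0.36 and -0.50, and its BY4716 cultures at 0.33 and 0.18. The low RM11 culture came from 1 array. The 2 arrays of RM11 replicate 2 read -1.51 (titled Cy3) and 0.51 (titled Cy5), and those of RM11 replicate 1 read 0.30 and 0.42. All BY4716 arrays lay between 0.16 and 0.41. Without RM11 replicate 1 RSM19 passed as lower, at -0.75, and that call rested on the same array.

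The other 16 members lacked a value on at least 1 parental array. With genes kept that had at least 1 array in every parental culture, an alternative chosen after seeing the data, 30 of all 66 members were higher and 0 lower, where 10.7% of 5169 genes were higher and 7.62% lower. MRPL38 (uL14) had 0.91 and 0.95 in RM11 and 0.11 and 0.00 in BY4716, and its difference of 0.88 (adjusted p = 0.00462) was above that of MRP21. RSM25 (mS23) had 0.90 and 0.95 in RM11, against 0.08 and 0.18 in BY4716, and differed by 0.80. MRPL3 (mL44) had 0.67 and 0.75 in RM11, against -0.04 and 0.00 in BY4716, and was higher by 0.72. MRPL9 and MRPL17 were also higher, by 0.64 and 0.56. MRPL11, MRPL49, MRPL7, MRPL4, MRP17, MRPL25, MRP2, MRPL27, MRPL44 and RSM7 stood between 0.38 (MRPL11) and 0.19 (RSM7) and did not pass. RSM22, a putative methyltransferase that acts on the ribosome rather than a bacterial-type ribosomal protein, differed by -0.27 (adjusted p = 0.201). Its BY4716 arrays read 0.48 and 0.81 where titled Cy3 and -0.09 and -0.12 where titled Cy5. RM11 replicate 1 read 0.26 (Cy3) and 0.01 (Cy5), and RM11 replicate 2 had only its Cy5-titled array, at -0.13. In this setting a culture with 1 array has 1 dye only, so the dyes are not balanced.

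The BY4716 cultures show what repeat cultures of the pool strain gave. Against the pool, 0 of 50 members passed by limma, with a lowest adjusted p of 0.190, and 5 had an unadjusted p under 0.05. Over all 3256 genes 0% passed after adjustment, and 18.9% had an unadjusted p under 0.05. The spread of the pool itself, which was measured as 1 sample, does not enter this test.

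The mean over the 50 tested members summarises each culture. It was 0.40 and 0.43 in the RM11 cultures and 0.02 and 0.05 in the BY4716 cultures. Over the 86 segregants it ran between -0.47 (segregant 14) and 0.76 (segregant 41), with a median of 0.17 and an SD of 0.26. The segregants therefore covered a wider range than the parents. Of them, 24 lay above the RM11 mean, 37 between the parental means and 25 below the BY4716 mean. The same few cultures stood at the ends for many members. Segregant 14 was the lowest for 25 of the 66 members and segregant 76 for 17, while segregant 41 was the highest for 17 and segregant 6 for 13. The mean from Cy3-titled arrays and that from Cy5-titled arrays correlated over segregants with r of 0.930.

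**Figure D2:**
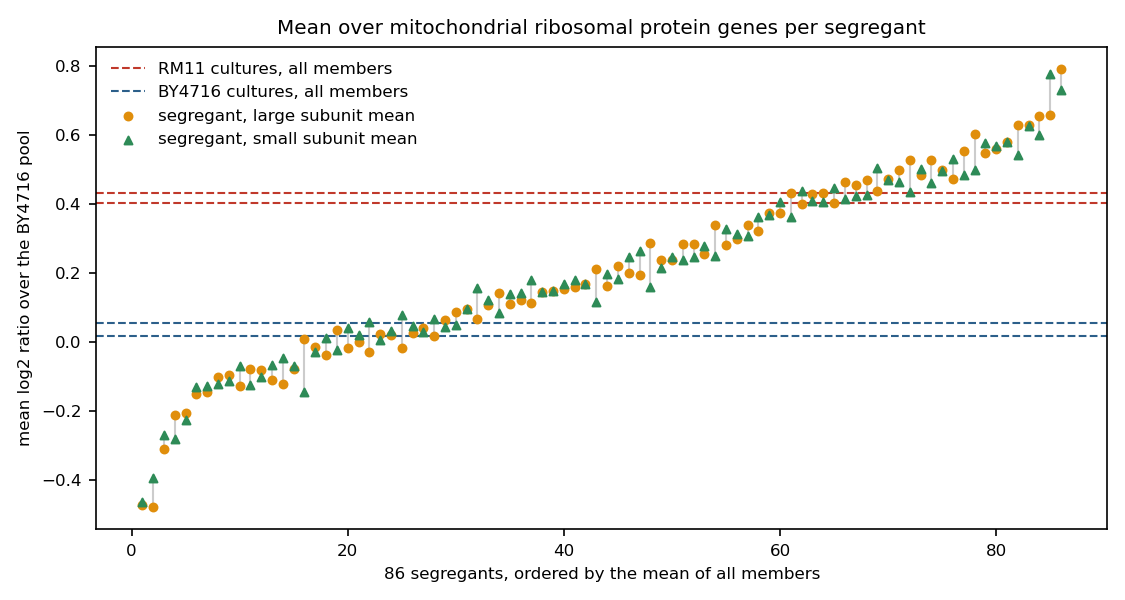
Mean log2 ratio over the pool (vertical axis) of the large subunit members (orange circles) and the small subunit members (green triangles) in each of 86 segregants, ordered by the mean of all 50 members. Dashed lines mark the RM11 cultures (red, 0.40 and 0.43) and the BY4716 cultures (blue, 0.02 and 0.05). The subunits stay close together over the whole range, which runs past both parents.

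The large and small subunits moved together. Over segregants the means of the 27 large and 23 small subunit members correlated with r of 0.981, and r was 0.903 when the large subunit was taken from Cy3-titled arrays and the small subunit from Cy5-titled arrays. The large subunit mean minus the small subunit mean had an SD of 0.0532 over segregants, against 0.26 for the mean of all members. It ran from -0.12 in segregant 6 to 0.15 in segregant 12. RSM19, 1 of the 23 small subunit members, had its lowest value, -2.34, in segregant 12. The large minus small difference was not taken without RSM19. In the RM11 cultures this difference was -0.03 and -0.01, and in the BY4716 cultures -0.03 and 0.02. The strains differed in it by -0.02, which was within the spread between cultures.

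The next comparison asked whether the members varied over segregants by more than repeat cultures of a parent did. The variance over segregants was larger in 45 of 49 members tested, at an adjusted p under 0.05 in a one-sided F test with an error moderated by limma. This was 91.8% of them, where 58.4% of 3193 genes passed. The median segregant SD was 0.322, and the median ratio of this SD to the parental error SD was 3.57, against 2.46 over all genes. MRP20, MRPL19, RSM19 and MRPL24 did not pass, with adjusted p of 0.145, 0.140, 0.0819 and 0.0502. When either BY4716 culture was left out, 0 members passed, where 4.81% and 3.93% of all genes did. Without the 6 segregants with a raised chromosome 44 of 49 passed, against 46.4% of all genes.

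The members with large segregant SDs varied in different ways. RSM19 had the largest, 0.54, with a range of -2.34 to 0.96 and a median of 0.08 over 85 segregants. MRPL3 (SD 0.45) ranged between -0.56 and 1.46, and its highest value was in segregant 47, in which chromosome XIII, where it lies, was raised. Without the 6 segregants its SD was 0.44. RSM25 (SD 0.43), on chromosome IX, ranged between -0.45 and 1.27, and MRPL24 (SD 0.42) between -0.75 and 1.14. For both of these segregant 41, which had the highest member mean, was the highest. MRPL31 (mL60; SD 0.42) ranged between -1.28 in segregant 14 and 1.16 in segregant 41, the cultures with the lowest and highest member means.

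MRP17 (bS6) had an SD of 0.40 that came largely from 1 array. Segregant 33 had a value of 2.82, the mean of 5.47 on the Cy3-titled array and 0.17 on the Cy5-titled array, and the next highest segregant had 0.61. Without segregant 33 its SD was 0.275. The smallest SDs were those of MRP20 (uL23), at 0.198 over a range of -0.31 to 0.72, MRPL44 (mL53), at 0.204, MRPL50, at 0.206, and MRP10 (mS37), at 0.220. MRPL44 had 0.35 and 0.18 in RM11 and 0.08 and 0.06 in BY4716, and MRP10 had 0.38 and 0.31 in RM11 and -0.07 and -0.04 in BY4716. MRP20 had RM11 cultures at 0.78 and 0.47 and BY4716 cultures at 0.18 and 0.12, so that its parental difference of 0.47 went with a small spread among progeny.

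Loci that add up on the log scale place the mean of the progeny halfway between the parents, and the segregant means were set against that midpoint. After adjustment 0 of 49 members lay above the midpoint and 0 below it, where 3.63% and 6.3% of 3193 genes did. At an unadjusted p under 0.05, 3 members differed, against 29.8% of all genes. MRP20 was farthest below, with a segregant mean of 0.18 and a midpoint of 0.39 (difference -0.21, SE 0.07, moderated test with adjusted p = 0.0922). RSM28 (mS46) and RSM10 (uS10) were each below by 0.13 (-0.13), with adjusted p of 0.143 and 0.174. RSM28 had 0.71 and 0.77 in RM11 and 0.31 and 0.20 in BY4716, and RSM10 had 0.38 and 0.50 in RM11 and 0.31 and 0.14 in BY4716. MRPL37 (mL54) was farthest above, by 0.14 (adjusted p = 0.132), with 0.05 and 0.21 in RM11 and -0.07 and -0.03 in BY4716. MRPL36 (bL31) and MRPL13 (mL50) followed at 0.10 and 0.08. MRPL37 and MRPL36 lie on chromosome II, and without the 6 segregants with a raised chromosome they were above by 0.11 and 0.07, while MRPL13, on chromosome XI, was above by 0.09. MRPL36 stood at 0.46 and 0.30 in RM11 and -0.17 and -0.01 in BY4716, and MRPL13 at 0.28 and 0.45 in RM11 and -0.17 and 0.03 in BY4716.

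Some members with like parents varied in the progeny, as MRPL40 and MRPL20 did in the F test (adjusted p of 0.0118 and 0.00898). MRPL19 did not pass that test. For each member, segregants were counted that lay more than 2 parental error SDs outside both parental means. This count grows as the gap between the parents narrows, so by itself it does not show a larger spread. The median was 18 segregants, against 19 over all genes, and the counts ran between 4 and 54. MRPL40 had the most, with 34 segregants below and 20 above both parents among 84. MRPL20 had 18 below and 33 above among 84. MRPL19, with a parental difference of 0.08, had 6 below and 7 above among 74. Progeny that inherit 1 of 2 alleles of a strong locus would form 2 clusters, and 0 of 49 members were called so, against 1.38% of 3193 genes.

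Co-variation over segregants was strong within the members. Of the 66, 65 had values in at least 80% of segregants, and RSM27, with 63 segregants, was left out. The mean pairwise Pearson r over their 2080 pairs was 0.668, and the mean Spearman rho was 0.686. The same mean was 0.0074 over all genes, and that of a member with a non-member was -0.0003. The lowest pair, RSM19 with RSM22, had r of 0.000452, so that 0 pairs were below 0. Genes of 1 culture share the pool and the same 2 arrays. With each pair taken across the dyes, from different arrays of a culture, the mean r was 0.575. A single component took up 68.6% of the members' correlation matrix, and the next 4.21%. These are descriptions over 86 segregants, without a test.

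Pairs within the large subunit had a mean r of 0.688, pairs within the small subunit 0.640, and pairs between the subunits 0.665. Mitochondria-specific families had 0.745 among themselves, bacterial families 0.635, and pairs between them 0.683. Without RSM19, described below, the small subunit had 0.672 and pairs between the subunits 0.681. Without the 6 segregants with a raised chromosome the means were 0.720, 0.673 and 0.696 for the large subunit, the small subunit and pairs between them. These means were not tested against each other. The highest pair was MRPL35 with RSM25, of different subunits, with r of 0.959. They lie on chromosomes IV and IX, which were both raised in segregant 70, and without the 6 segregants their r was also 0.959. MRPL32 with MRPL49 had 0.941 and MRPL17 with MRPL49 had 0.940.

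MRPL49 (bL21) was the member closest to the rest, with a mean r of 0.781 with the other 64. Its RM11 cultures had 0.37 and 0.39 and its BY4716 cultures -0.01 and 0.09. MRPL8, MRPL31, MRPL17 (mL46) and MRPL51 (mL43) followed, at 0.773, 0.763, 0.762 and 0.761. MRPL31 had 0.37 and 0.62 in RM11 and 0.08 and 0.14 in BY4716. MRPL17 had 0.53 and 0.68 in RM11 and 0.01 and 0.07 in BY4716, and MRPL51 had 0.57 and 0.61 in RM11 and 0.25 and 0.12 in BY4716. All of these lie in the large subunit, and their parental values did not overlap.

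**Figure D3:**
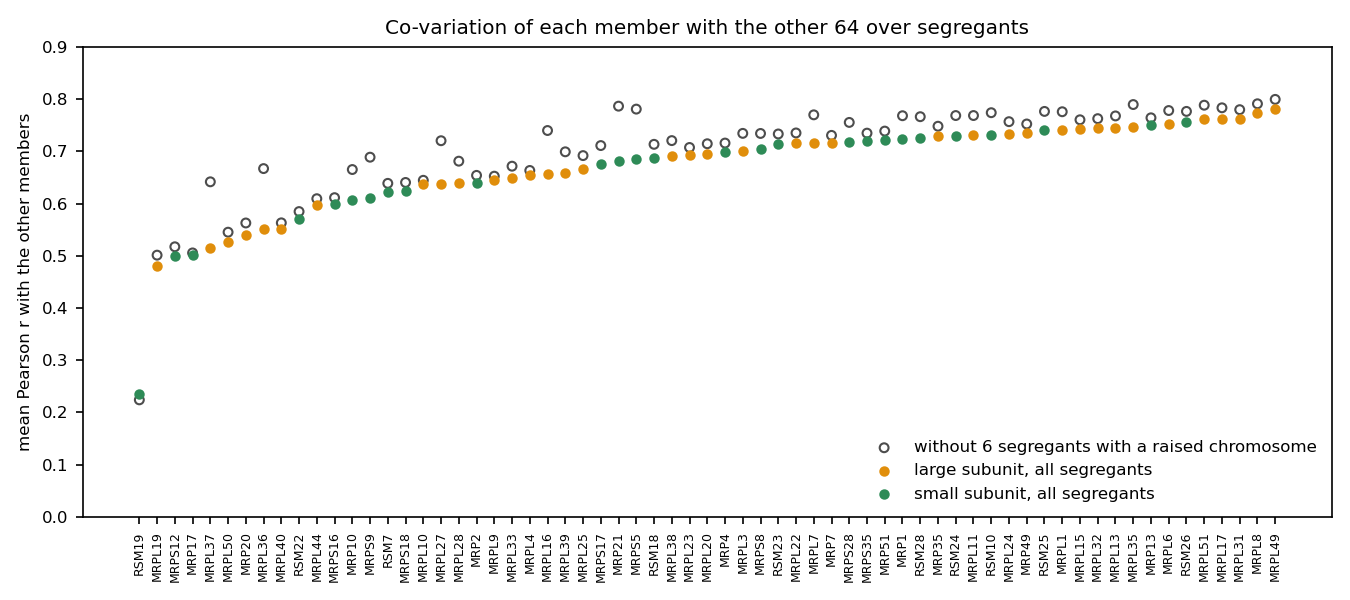
Mean Pearson r of each member with the other 64 members over segregants (vertical axis), in ascending order, for large (orange) and small (green) subunit members. Open circles leave out the 6 segregants with a raised chromosome. RSM19 stands alone at 0.236, most members lie between 0.6 and 0.8, and MRPL37 and MRPL36 move up when those segregants are left out.

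RSM19 departed from the other members, with a mean r of 0.236. This did not come from a single culture, since it was 0.227 without its lowest segregant. Its 2 lowest segregants were low on both arrays. Segregant 12, whose member mean was -0.06, had -2.45 and -2.22, and segregant 62, whose member mean was 0.23, had -1.97 and -1.75. The genes most like RSM19 were YEF1, an NADH kinase, with r of 0.732, and QCR10 and COX17, with r of 0.620 and 0.614. QCR10 and COX17 encode a subunit of the cytochrome bc1 complex and a copper carrier for cytochrome oxidase. These are Pearson r with segregants 12 and 62 included. Neither a rank correlation nor an r without those 2 segregants was taken. QCR10 had its 2 RM11 cultures at 1.48 and -0.04, so that RM11 replicate 2 was low for both genes. MRPS12 is next to RSM19 by systematic name, which made them the only adjacent members, and they had r of 0.396.

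MRPL19 had a mean r of 0.480 and MRPS12 one of 0.499. The genes most like MRPL19 were MRPL23 (r of 0.733) and TOM5 and TOM7, small subunits of the outer membrane import channel (0.724 and 0.711). The gene most like MRPS12 was ATP15, a subunit of ATP synthase (0.757). MRP17 had 0.501, but without segregant 33 its mean r was 0.772, near that of the closest members. MRP17 had RM11 cultures at 0.31 and 0.34 and BY4716 cultures at -0.05 and 0.11.

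MRPL37 had a mean r of 0.516, and 0.642 without the 6 segregants with a raised chromosome. It lies on chromosome II, and so did the 5 genes most like it, the members MRPS5, MRPL27 and MRP21 and the non-members CBP6 and RIM2. MRPL36, also on chromosome II, had 0.551 with these segregants and 0.667 without them. Some of the departing members, though not all, had arrays that repeated less well. The r between the dyes over segregants had a median of 0.809 over members, and was 0.361 for RSM19, 0.295 for MRPL19 and 0.332 for MRP17, though 0.745 for MRPS12 and 0.760 for MRPL37. Across the 65 members, which are not independent replicates, this r had a Spearman rho of 0.677 with the mean r. Both of these r come from the same values, so they are not independent of each other. The annotated length of the gene had a rho of 0.297 with the mean r. The 5 departing members were between 276 and 477 bases long, against a median of 706.5 bases over all members. The part of array precision in these departures was not tested.

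The raised chromosomes showed in the members on them. In segregants 61, 37, 51 and 75 the 7 members on chromosome II (MRP21, MRPL16, MRPL27, MRPL36, MRPL37, MRPS5 and MRPS9) stood above the members elsewhere by 0.94, 0.91, 0.80 and 0.74. In the other 82 segregants the same difference ran from -0.24 to 0.37, with a median of 0.06. The 12 members on chromosome IV were above by 0.83 in segregant 70, against at most 0.19 in the other 85. The 7 on chromosome XIII were above by 0.87 in segregant 47, and also by at most 0.19 elsewhere. A difference of 1 on the log2 scale is a doubling. The number of chromosome copies was not measured here.

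**Figure D4:**
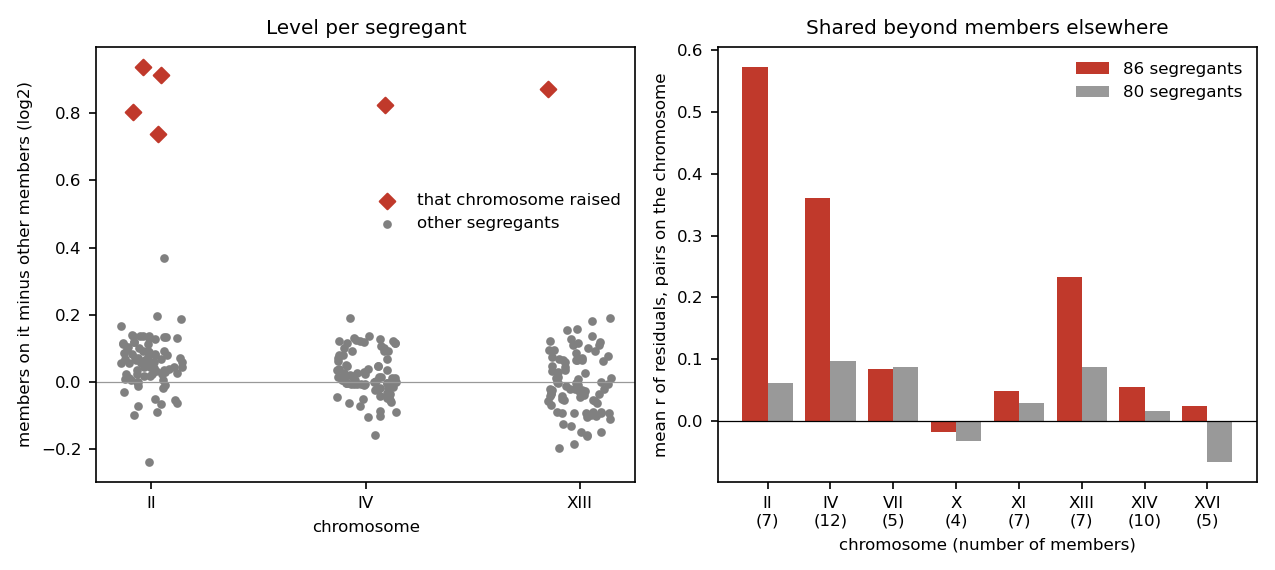
Left, mean log2 ratio of the members on chromosome II, IV or XIII minus that of the members elsewhere in each segregant, with segregants in which the whole chromosome was raised as red diamonds, at 0.74 to 0.94. Right, mean r of the residuals of member pairs on the same chromosome after removing the mean of members elsewhere, for 86 segregants (red) and for the 80 without a raised chromosome (grey). The bar of chromosome II is 0.573 with and 0.0618 without those segregants.

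What members of a chromosome shared beyond the rest was measured on residuals from the mean of members on other chromosomes. The mean r of residuals was 0.573 over the pairs on chromosome II, 0.360 on chromosome IV and 0.233 on chromosome XIII. Without the 6 segregants these were 0.0618, 0.0977 and 0.0878. Over all 202 same-chromosome pairs the mean was 0.223 with and 0.0533 without them. The mean r of the values themselves over all pairs was 0.668 with these segregants and 0.700 without them, so that they lowered the co-variation of the members as a whole.

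The 10 genes outside the members with the highest r with the member mean are given here. MAM33, a matrix protein that acts in mitochondrial ribosome assembly, had r of 0.937 with the mean of the members over 84 segregants. Its difference between parents was 0.68 (limma adjusted p = 0.00470). MSC6, a pentatricopeptide protein, had r of 0.931. RML2 (0.921), PET123 (0.919), NAM9 (0.916) and SWS2 (0.889) encode mitochondrial ribosomal proteins whose symbols lie outside the rule. CBP3, an assembly and translation factor for cytochrome b, had 0.910, and the lysine tRNA synthetase gene MSK1 0.885. ATP23, a protease and chaperone for ATP synthase, had 0.879 and CYT2, the cytochrome c1 heme lyase, 0.877. At the other end were TOM1, a ubiquitin ligase, at -0.704, the proteasome activator gene BLM10 at -0.697, TRP5, tryptophan synthase, at -0.695, the nuclear export receptor gene CRM1 at -0.681 and GCN20, an activator of the Gcn2 kinase, at -0.680. Of these 5 low genes none passed between the parents, with differences between -0.14 (GCN20) and -0.32 (TOM1). The genes next in rank, DHH1, COG6, GCN1 and IML1, did pass as lower in RM11, at -0.51, -0.67, -0.50 and -0.30. Their limma adjusted p were 0.0115, 0.00657, 0.0106 and 0.0424. UBR1, which followed them, did not pass (-0.03, adjusted p = 0.820). The r of all these genes is over 4942 genes ranked, without a test.

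**Figure D5:**
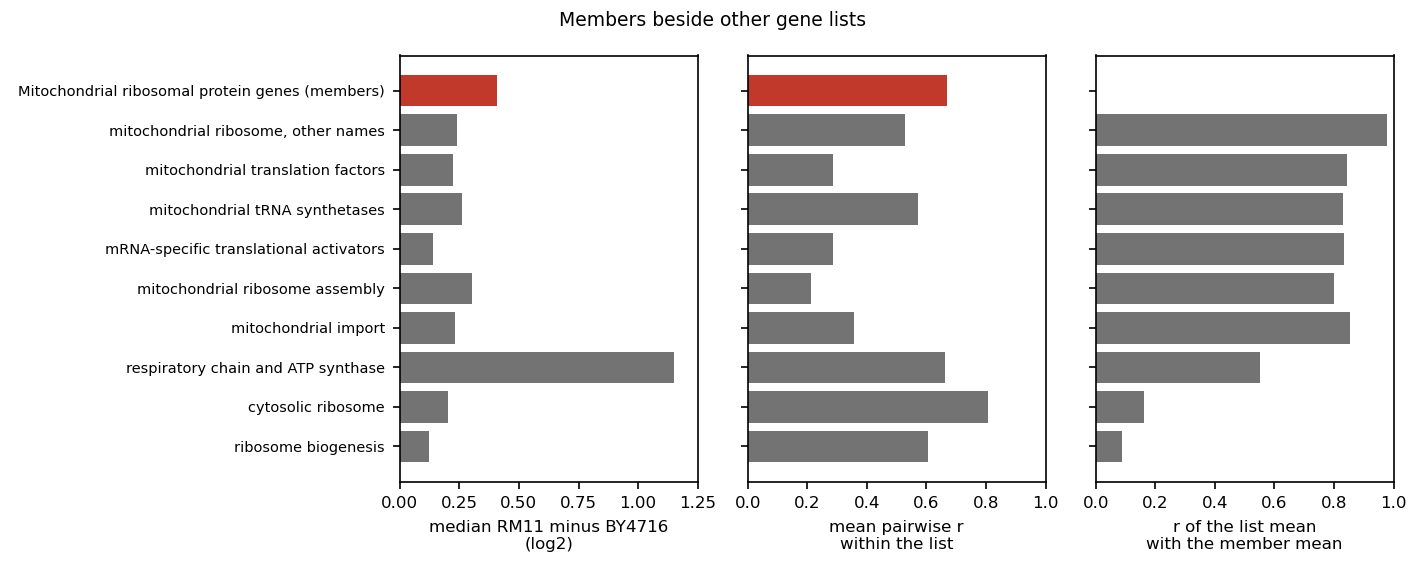
Mitochondrial ribosomal protein genes (red) and 9 other gene lists (grey), with the median difference of RM11 minus BY4716 (left, log2), the mean pairwise r within the list over segregants (middle) and the r of the list mean with the member mean (right). The respiratory chain list has the largest parental difference, 1.15, and the list of mitochondrial ribosomal proteins with other names the highest r with the members, 0.977.

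Other lists of the pathway are set beside the members here. Mitochondrial ribosomal proteins with other names had 3 of 9 tested genes higher and 0 lower, and their mean followed that of the members with r of 0.977. Translation factors had 3 of 7 higher and 0 lower, tRNA synthetases 2 of 6 and 0, activators of single messenger RNAs 1 of 6 and 1, and ribosome assembly factors 2 of 5 and 2. The r of their means with the member mean was 0.843, 0.831, 0.834 and 0.80. Protein import into mitochondria had 5 of 24 higher and 0 lower, with r of 0.854. Beside all of these counts stands the background of 18.2% of genes higher and 8.54% lower. The shares of higher genes in the import list and among the activators were near it, and the other lists had few tested genes.

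The respiratory chain and ATP synthase had 28 of 31 genes higher and 1 lower, with a median difference of 1.15. Its mean followed the member mean less closely, with r of 0.552. Within this list the mean pairwise r was 0.662, near the 0.668 of the members. The cytosolic ribosome had 2 of 121 genes higher and 0 lower, with a median difference of 0.20, against 0.10 over all genes. Its mean r was 0.805 among its own genes, and r was 0.164 between its mean and that of the members. Ribosome biogenesis had 3 of 57 higher and 1 lower, a median difference of 0.12, and r of 0.0899 with the member mean. Whether these lists differ from the members was not tested.

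Regulators of mitochondrial genes were read from a list. PUF3 encodes an RNA-binding protein that binds messenger RNAs of mitochondrial proteins, among them those of the mitochondrial ribosome. It had 1.79 and 1.83 in the RM11 cultures, against -0.71 and -0.58 in the BY4716 cultures. It lacked a value on some parental arrays, so the dyes were not balanced for it. Its BY4716 cultures both stood below the pool of their own strain. With at least 1 array per culture PUF3 was higher by 2.45 (SE 0.09, limma adjusted p = 0.000288). Over 76 segregants its r with the member mean was 0.153. HAP4, the activating subunit of the HAP complex, had 0.94 and 0.97 in RM11 and 0.13 and 0.24 in BY4716, was higher by 0.77 (adjusted p = 0.00308) and had r of 0.488. HAP1, a heme-responsive activator, had -1.62 and -1.97 in RM11 and 0.22 and 0.07 in BY4716, was lower (log2 -1.94, adjusted p = 0.000789) and had r of -0.383. CBF1, a centromere and promoter binding factor, had -0.95 and -0.96 in RM11 and -0.03 and 0.02 in BY4716 and was lower too (log2 -0.95, adjusted p = 0.00111), with r of 0.0160.

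RPO41, the mitochondrial RNA polymerase, had 0.50 and 0.55 in RM11 and 0.12 and 0.04 in BY4716. It was higher by 0.45 (adjusted p = 0.0168), and it had a Pearson r of 0.610 and a Spearman rho of 0.582 with the member mean. MKT1, a post-transcriptional regulator, had -0.29 and -0.21 in RM11 and -0.12 and -0.07 in BY4716, did not pass (adjusted p = 0.210) and had r of -0.438. HAP2, HAP3, SFP1 and MTF1 did not pass, at 0.07, 0.27, 0.29 and 0.17. HAP5 and ABF1 had no test on all 8 arrays, and stood at 0.17 and 0.02 with at least 1 array per culture. The r with the member mean was 0.0290 for HAP2, 0.443 for HAP5, 0.385 for ABF1, 0.256 for SFP1 and 0.367 for MTF1. For MTF1, a mitochondrial transcription factor, the Spearman rho was 0.683, above its Pearson r and the highest rho of this list. A transcript's r says nothing of the activity of its protein.

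Several features of the arrays were set against the member mean. The first numbers of the segregant titles, whose meaning the labels do not give, formed 18 groups, and 27.7% of the variance of the member mean over segregants lay between them. With no difference between the numbers, 20% would lie between them on average. With values centred within each first number the mean pairwise r of the members was 0.644. The r of the member mean with the number of values on a culture's arrays was -0.0107. A first principal component was taken over the 1010 genes with complete values, not over all genes. With that component removed the mean pairwise r was 0.679, and the member mean had r of 0.0676 in size with it.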

How the data were processed

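The deposited values are log ratios of each culture over the BY4716 pool, taken as log2. Per the labels, the culture is in channel 2 of its Cy3-titled array and in channel 1 of its Cy5-titled array, with the pool in the other channel. The base of the logarithm is not given in the sources used here, nor are scanner, background correction or dye normalization. Each array has a mean of 0 in the deposited values, which points to centring, though the sources used here do not state that step. The direction rests on the strain markers. The number of arrays limits the precision, since no intensities were used. Of 7085 probes, 5645 had 1 gene symbol, 1440 had none, and probes of a gene were averaged. Gene names, lengths (any intron included), neighbours and chromosomes come from RefSeq R64.

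Both arrays of a culture were averaged, and a culture needed both. Cultures are the replicates. The parental difference, the BY4716 cultures against the pool, the variance over segregants (F test with 5.28 error degrees of freedom, adjusted p under 0.05) and the midpoint test used limma 3.58.1 in R 4.3.3 over all genes with values on all 8 parental arrays, and the tests on segregants also needed values in 80% of them. Mixtures used mclust 6.1.1, and called 2 clusters at a BIC difference over 10, means over 4 component SDs apart and at least 20% in the smaller. Steps were tested on simulated data. A chromosome was called raised where its median exceeded the array's by 0.5.

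Every member is named. Values per culture are given for the 6 largest and 6 lowest parental differences, the 6 largest and 4 smallest segregant SDs, the 5 highest and 5 lowest mean r and 3 each way from the midpoint. Named non-members are the 10 highest and 5 lowest in r with the member mean and the list of regulators, and other genes were named after their values were seen. The members and lists were chosen with earlier results of these data known. Alternatives changed the scaling of arrays, the dye, the cultures included, the filter on missing values, the thresholds and the error estimate, and added the culture number as a block.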

Additional observations from a re-analysis of the deposited data

How the results depend on the processing

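The count of members higher in RM11 was 34 of 50 also with the culture number as a replicate block, of which 31 were among the 34 of the fit without it, and 27 with arrays centred on their median. The deviations of same-numbered parental cultures had r of 0.189, and with 2 cultures per strain the numbers were not taken as pairs. The count was 10 with quantile normalization, where 13.4% of all genes passed as higher and 9.67% as lower, 13 of 51 with Cy3-titled arrays alone (10.1% of all genes), 37 of 65 with Cy5-titled arrays alone (13.7%), 6 of 11 with no missing value on any array (18.0%) and 5 of 50 at a minimum of 1.5-fold (7.37%). Of the 34 members, 12 were also called with Cy3-titled arrays and 27 with Cy5-titled arrays. With 1 parental culture left out a strain has 1 culture only. The counts of higher and lower members in those fits are not set beside these. The median difference was 0.36 with median centring, 0.26 with quantile normalization, 0.38 with Cy3-titled arrays and 0.38 with at least 1 array per culture, and between 0.36 and 0.42 without 1 culture. Against the pool, 5 members passed with quantile normalization (26.8% of all genes) and between 0 and 9 without 1 culture. The variance test called 16 of 51 members with Cy3-titled arrays (19% of all genes), 63 of 65 with Cy5-titled arrays (72.4%), among them all 45 of the main test, 11 of 11 with a value on every array (64.7%), 49 of 49 with the error between the arrays of a segregant (97.1%), and between 0 and 51 without 1 culture. Above the midpoint lay 1 member with quantile normalization (14.0% of all genes) and 0 to 1 without 1 culture. Below it lay 1 with Cy5-titled arrays (5.81%) and 0 to 3 without 1 culture. The cause of these changes was not tested. The mean pairwise r stayed between 0.575 and 0.700 and the r of the subunit means between 0.972 and 0.984 (over all 66 members) under the alternatives run, and 0 members were called as 2 clusters under each. For single members, 277 alternative values kept direction and side of the threshold, 87 fell short of it, 30 newly passed and 15 moved without a test, and 0 reversed a call. The settings with at least 1 array per culture and without the segregants with a raised chromosome were chosen after seeing the data.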

Other observations

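Members were also set beside the gene next to them. Over 111 pairs of a member and a neighbouring non-member, adjacent by systematic name, r over segregants ran between -0.583 and 0.833, with a median of 0.180, and 6 pairs were above 0.6. The mean r of a member with any non-member was -0.0003, a mean not limited to genes of the same chromosome. Neighbours share a chromosome, and their r include the segregants with a raised chromosome. No r of neighbours was taken without those segregants. RSM28 lies on chromosome IV and MRPS8 on chromosome XIII, each raised in a segregant, and MRPL31 lies on chromosome XI. The highest was RSM28 with MZM1, an assembly factor of the cytochrome bc1 complex, at 0.833. MRPS8 with AIM36 had 0.757, and MRPL31 with CMC1, a copper-binding protein of cytochrome oxidase assembly, had 0.736. AIM36 and CMC1 did not pass between the parents, at -0.02 and 0.17 (limma adjusted p = 0.901 and 0.167). The test of all 8 arrays gave no value for MZM1. These pairs were picked after their values were seen.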
